A study of Mus musculus with 36 samples.

Results

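The genes described here are 9 genes of pericytes and vascular smooth muscle, Acta2, Myh11, Tagln, Cnn1, Mylk, Rgs5, Abcc9, Higd1b and Mcam, taken by symbol from the 52636 genes of the count table. Of these, 5 encode parts of the contractile apparatus of smooth muscle (Acta2, Myh11, Tagln, Cnn1, Mylk) and 4 are used as markers of pericytes (Rgs5, Abcc9, Higd1b, Mcam). All 9 passed the filter on low counts that left 15330 genes to be tested. They were followed across 3 kinds of cells sorted by fluorescence (FACS) from diaphragm, pectoralis and limb muscle of S100β-GFP;NG2-dsRed mice, which carry 2 transgenes in every cell type sorted: GFP driven by the S100b promoter and dsRed driven by the promoter of Cspg4, the gene of the proteoglycan NG2. The labels call the cells NG2DsRed+ (dsRed alone, here NG2-dsRed+ cells), S100GFP+ (GFP alone, here S100β-GFP+ cells) and NG2DsRed+/S100GFP+ (both, the perisynaptic Schwann cells or PSCs). Each replicate was the sorted cells of a single mouse, so the cell type of a library rests on which promoters were active and on the sorting gates. The labels give ages from postnatal day 15 to an upper day that runs from 21 to 46 with the library number, and the study's methods give 21 as the upper day.

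Pericytes and vascular smooth muscle cells are together called mural cells, because they sit on the wall of blood vessels outside the endothelium. In smooth muscle, calcium activates myosin light chain kinase, the product of Mylk, which phosphorylates smooth muscle myosin so that it can pull on actin filaments. Capillary pericytes are known for low levels of this contractile apparatus and for other genes, among them Rgs5 and the subunits of a potassium channel that opens when cellular ATP falls. NG2 is made both by mural cells and by PSCs, so the dsRed reporter can label mural cells.

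The table has a column for 10 NG2-dsRed+, 9 PSC and 8 S100β-GFP+ libraries, with 5221655 to 9592875 counts on genes each. Levels are given as counts scaled to 1000000 per library (CPM). Cspg4 was at 665 ± 138 CPM (SD, n = 10) in NG2-dsRed+ cells, 689 ± 132 CPM (n = 9) in PSCs and 71.0 ± 42.3 CPM (n = 8) in S100β-GFP+ cells, and S100b was at 6.54 ± 4.90, 255 ± 199 and 29.4 ± 10.1 CPM. The summed level of 10 Schwann cell markers was 3166 to 3964 CPM in PSCs, 712 to 2295 CPM in S100β-GFP+ cells and 98.9 to 499 CPM in NG2-dsRed+ cells, by library. Sox10, a transcription factor that defines the Schwann cell lineage, was at 379 to 703 CPM in PSCs but at only 5.57 to 38.8 CPM in cells labelled S100GFP+, whose 8 fibroblast markers summed to 19770 to 45090 CPM and whose 8 macrophage and leukocyte markers summed to 1243 to 12760 CPM. The NG2-dsRed+ libraries carried 10 endothelial markers at a sum of 1893 to 4470 CPM, above the 200 to 874 CPM of the PSC libraries, and the 8 fibroblast markers at 2755 to 19820 CPM. S100β-GFP+ libraries 14, 17 and 22 stood apart from the other 5, with endothelial sums of 1007, 3404 and 1829 CPM against 146 to 238 CPM. The part of these other cell types in the results below was not tested.

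For the member of highest level per length in NG2-dsRed+ cells in each set, the sequence before the start of transcription is shown first, from RefSeq promoter windows on GRCm38.p6, in which 6 of the 9 genes had an entry (Acta2, Cnn1, Mylk, Rgs5, Abcc9 and Mcam). Acta2 (chromosome 19, 34241090 to 34255590, minus strand) had 2 matches to the CArG box, the element of 10 bases bound by serum response factor, when 1 mismatch was allowed, and these are shown with 10 flanking bases on each side and the box in capitals. The boxes start 84 and 34 bases before the RefSeq start.
Acta2 box at -84: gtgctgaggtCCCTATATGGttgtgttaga
Acta2 box at -34: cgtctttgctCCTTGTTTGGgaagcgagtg
They lie at chr19:34255438-34255467 and chr19:34255388-34255417 on the minus strand. The gene positions given in this text are from another annotation, GENCODE, whose span of Acta2 includes both boxes. They are thus upstream of the RefSeq start only. Of 32817 promoter windows, 18.6% held at least 1 such match in the 250 bases before the start and 2.96% held 2 or more. No match was found in the same stretch of Cnn1, Mylk, Rgs5, Abcc9 or Mcam. The Mylk window (chr16:34784700-34784999) lies well inside the gene as GENCODE places it (34745210 to 35002420). The sequence before that GENCODE start of Mylk was not searched. The last 100 bases before the start of Rgs5 (chromosome 1, 169655501 to 169695813, plus strand) are shown with the letters TATATA in capitals, 30 to 25 bases before the start, a sequence that 1.35% of all windows held in their last 50 bases.
Rgs5 before the start: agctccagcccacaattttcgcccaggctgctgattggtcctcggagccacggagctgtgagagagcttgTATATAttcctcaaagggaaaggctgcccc
This stretch is at chr1:169655401-169655500. The window of Mcam had 25 CG dinucleotides in the 250 bases and 73.6% G and C, where the medians of all windows were 6 and 52.4%, and that of Rgs5 had 4 and 53.6%. These matches are descriptions of the letters and no binding was measured.

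The first question was how far these genes separate NG2-dsRed+ cells from PSCs, which share NG2. Of the 9 genes, 8 were higher in NG2-dsRed+ cells than in PSCs and 1, Mcam, did not pass the test, where 23.1% of all genes tested were higher in NG2-dsRed+ cells. In 7 of the 9 every NG2-dsRed+ library lay above every PSC library, against 8.83% of all genes. The median log2 fold change was 3.54 over the 5 contractile genes and 5.75 over the 4 pericyte genes, against -0.02 over all genes. These are bulk RNA values. Fewer mural cells in a library, less of their RNA per cell and RNA of these genes from other cells, PSCs among them, cannot be told apart.

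Acta2, the actin isoform of smooth muscle, was at 1388, 2173 and 3787 CPM (lowest, median and highest) in NG2-dsRed+ libraries, at 60.6, 196 and 448 CPM in PSC libraries and at 46.1, 223 and 316 CPM in S100β-GFP+ libraries. The NG2-dsRed+ libraries all lay above those of the other cell types, which overlapped each other. Its log2 fold change was 3.54 ± 0.35 (SE, adjusted p = 2.0e-09) against PSCs and 3.39 ± 0.37 (adjusted p = 1.7e-08) against S100β-GFP+ cells.

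Myh11, the heavy chain of smooth muscle myosin (chromosome 16, 14194535 to 14291372), was at 668, 984 and 1733 CPM in NG2-dsRed+ libraries, at 14.1, 77.8 and 164 CPM in PSCs and at 14.4, 99.3 and 154 CPM in S100β-GFP+ cells. The order was that of Acta2, with NG2-dsRed+ libraries apart and the others mixed. The log2 fold changes were 3.54 ± 0.41 (adjusted p = 4.1e-08) against PSCs and 3.53 ± 0.43 (adjusted p = 1.6e-07) against S100β-GFP+ cells.

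Tagln, which encodes the actin-binding protein transgelin (chromosome 9, 45929619 to 45936058, minus strand), was at 139, 162 and 396 CPM in NG2-dsRed+ libraries, 3.44, 18.7 and 65.5 CPM in PSCs and 5.12, 20.4 and 37.9 CPM in S100β-GFP+ cells. Again no PSC or S100β-GFP+ library reached the lowest NG2-dsRed+ library. The log2 fold changes were 3.11 ± 0.40 (adjusted p = 1.8e-07) and 3.15 ± 0.42 (adjusted p = 5.6e-07). Tagln shares 108 bases with the end of Pcsk7 and 3627 bases with Gm48529, both on the opposite strand, and these averaged 25.8 and 3.47 CPM in NG2-dsRed+ cells.

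Cnn1, the gene of calponin, an inhibitor of actomyosin (chromosome 9, 22099216 to 22109630), had the lowest level per length of the contractile genes in NG2-dsRed+ cells. Its libraries ran over 16.2, 37.1 and 82.4 CPM in NG2-dsRed+ cells, 0.939, 7.05 and 26.1 CPM in PSCs and 0.875, 4.78 and 20.2 CPM in S100β-GFP+ cells, and the lowest libraries of the latter types held 6 and 7 counts. It was the only contractile member whose groups overlapped in both comparisons. Its log2 differences were also the smallest of the 5, at 2.19 ± 0.48 (adjusted p = 0.00046) and 2.33 ± 0.51 (adjusted p = 0.00062).

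Mylk, the gene of the kinase itself (chromosome 16, 34745210 to 35002420), was at 403, 494 and 760 CPM in NG2-dsRed+ libraries, 8.77, 32.8 and 51.3 CPM in PSCs and 20.4, 56.9 and 94.4 CPM in S100β-GFP+ cells. Its NG2-dsRed+ libraries had the narrowest range of the contractile genes, the highest being 1.89 times the lowest. The log2 fold change was 4.04 ± 0.31 (adjusted p = 7.0e-12) against PSCs and 3.32 ± 0.31 (adjusted p = 9.0e-10) against S100β-GFP+ cells. Of 3 genes on the opposite strand that overlap Mylk, 1700119H24Rik averaged 0.235 CPM in NG2-dsRed+ cells, and no level is given for E130310I04Rik and Gm21691.

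**Figure D1:**
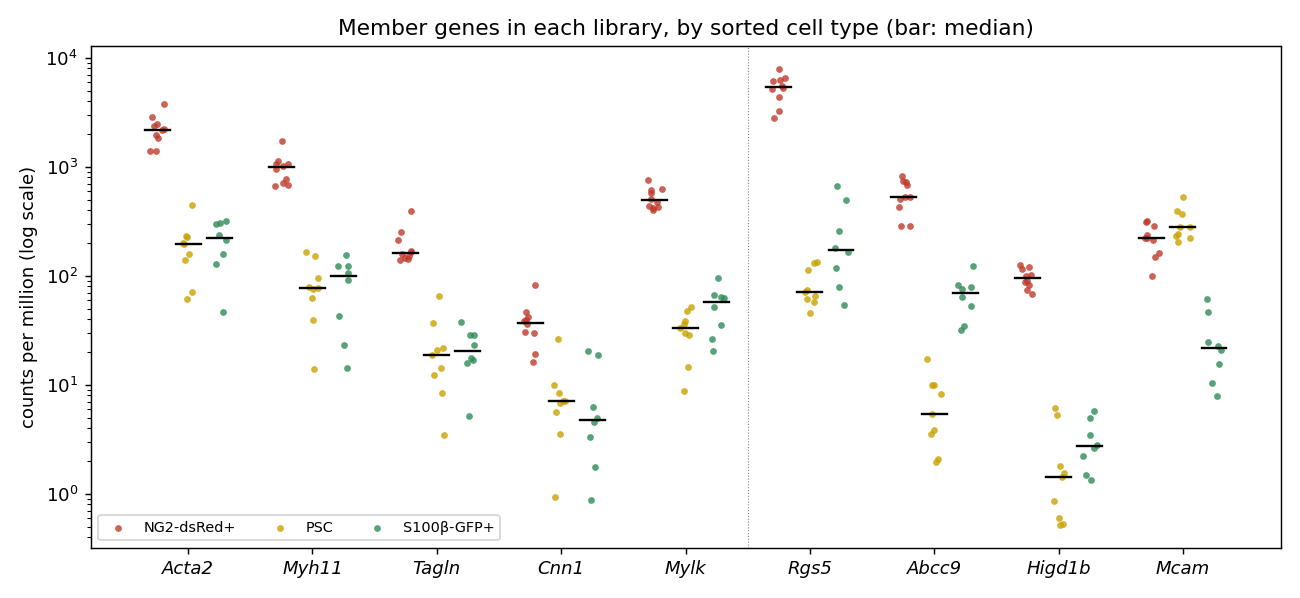
Level of each of the 9 genes in every library in CPM on a log axis, with a point for each library, coloured by sorted cell type, and a bar at the median; contractile genes are left of the dotted line and pericyte genes right of it. Acta2 runs from 1388 to 3787 CPM in NG2-dsRed+ libraries and does not exceed 448 CPM elsewhere. The ranges of Mcam in PSCs (203 to 532 CPM) and in NG2-dsRed+ libraries (100 to 318 CPM) overlap.

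Rgs5, a regulator that shortens G protein signalling, was at 2775, 5400 and 7921 CPM in NG2-dsRed+ libraries. It was at 45.2, 70.7 and 133 CPM in PSCs and 54.1, 172 and 659 CPM in S100β-GFP+ cells. No library of another type came near the lowest NG2-dsRed+ library, and the log2 fold change was 6.00 ± 0.44 (adjusted p = 3.4e-12) against PSCs and 4.41 ± 0.43 (adjusted p = 1.8e-09) against S100β-GFP+ cells. Without S100β-GFP+ libraries 14, 17 and 22 the latter was 5.50 (adjusted p = 1.8e-11). These were the S100β-GFP+ libraries highest for Rgs5, so leaving them out raises this value by itself.

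Abcc9 encodes SUR2, the regulatory subunit of the ATP-sensitive potassium channel (chromosome 6, 142587862 to 142702315, minus strand). It was at 288, 527 and 828 CPM in NG2-dsRed+ libraries, 1.97, 5.34 and 17.3 CPM in PSCs and 31.8, 70.2 and 123 CPM in S100β-GFP+ cells. The libraries of the 3 cell types did not overlap for any pair of types. Its log2 fold change against PSCs was 6.32 ± 0.42 (adjusted p = 4.5e-13), the highest among the 9 genes, and against S100β-GFP+ cells it was 3.03 ± 0.37 (adjusted p = 1.4e-07). Kcnj8, which encodes the pore of the same channel and was picked after its values were seen, was at 493 ± 137 CPM in NG2-dsRed+ cells, 6.65 ± 5.04 CPM in PSCs and 30.7 ± 14.8 CPM in S100β-GFP+ cells, and against PSCs it was higher by 6.21 ± 0.42 on the log2 scale (adjusted p = 6.2e-13). 5330439B14Rik, on the opposite strand within Abcc9, averaged 0.981 CPM in NG2-dsRed+ cells.

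Higd1b, a gene of the hypoxia-inducible domain family used as a pericyte marker (chromosome 11, 102835849 to 102838040), was at 68.6, 94.9 and 125 CPM in NG2-dsRed+ libraries, 0.519, 1.43 and 6.11 CPM in PSCs and 1.33, 2.72 and 5.76 CPM in S100β-GFP+ cells. The libraries of the latter types, which held 3 to 58 and 6 to 35 counts, were all far below those of NG2-dsRed+ cells and overlapped each other. The log2 fold changes were 5.49 ± 0.41 (adjusted p = 5.5e-12) against PSCs and 4.97 ± 0.42 (adjusted p = 1.7e-10) against S100β-GFP+ cells.

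Mcam, which encodes the adhesion protein CD146 of endothelial and mural cells (chromosome 9, 44134469 to 44142727), was the exception. It was at 100, 222 and 318 CPM in NG2-dsRed+ libraries, 203, 281 and 532 CPM in PSCs and 7.88, 21.7 and 61.3 CPM in S100β-GFP+ cells. NG2-dsRed+ and PSC libraries overlapped, and both lay above every S100β-GFP+ library. Its log2 fold change between NG2-dsRed+ cells and PSCs was -0.46 ± 0.29 (95% interval -1.03 to 0.11, adjusted p = 0.21). Lars2, Gm23935 and Gm15564 take a large and varying part of each library's counts, and a fit with that part as covariate put the value at -0.89, past the threshold (adjusted p = 0.0052). Gm10687, on the opposite strand and sharing 17 bases, averaged 10.6 CPM in NG2-dsRed+ cells and 16.2 CPM in PSCs.

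Against S100β-GFP+ cells all 9 genes were higher in NG2-dsRed+ cells, where 15.2% of all genes tested were. In 8 of the 9, all but Cnn1, every NG2-dsRed+ library lay above every S100β-GFP+ library, against 4.38% of all genes. The log2 fold changes ran from 2.33 to 4.97 with a median of 3.32, against 0.02 over all genes. Mcam rose by 3.09 ± 0.34 (adjusted p = 1.8e-08), and by 3.80 without S100β-GFP+ libraries 14, 17 and 22 (adjusted p = 6.3e-10). Libraries 17 and 22 were the highest S100β-GFP+ libraries for Mcam, so leaving them out raises its value by itself. This comparison and the one with PSCs share the NG2-dsRed+ libraries.

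**Figure D2:**
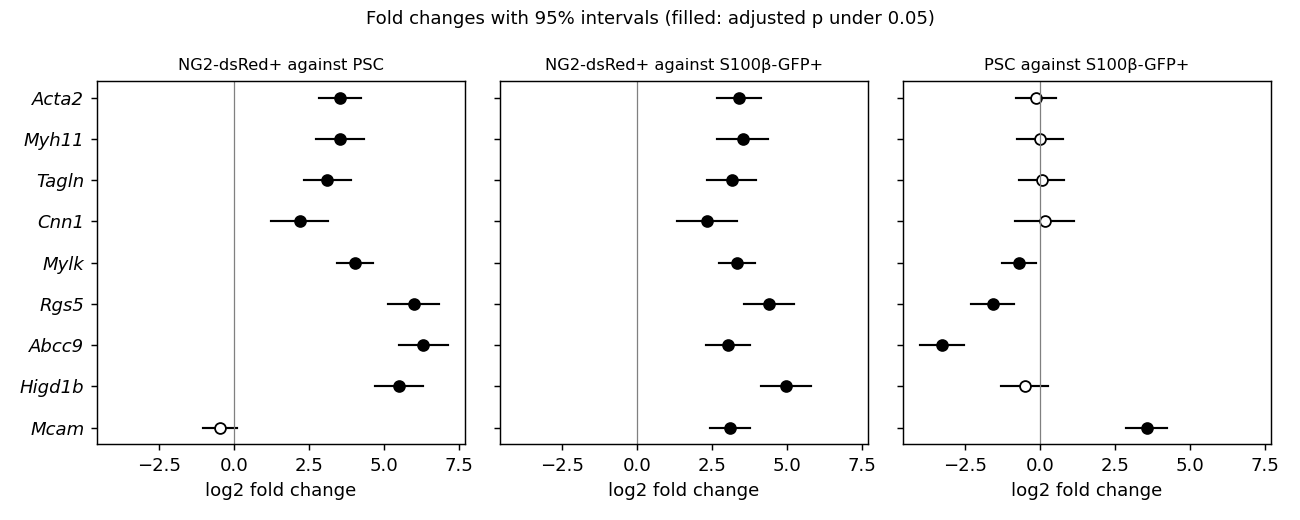
Log2 fold change of each gene (x axis) with its 95% interval as a line, in the 3 comparisons between cell types; filled points have an adjusted p under 0.05. All points of the middle panel lie right of 0, and Mcam alone moves from -0.46 in the left panel to 3.55 in the right panel.

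Between PSCs and S100β-GFP+ cells the 9 genes did not move in the same direction. Mcam was higher in PSCs (22.9% of all genes tested were), Mylk, Rgs5 and Abcc9 were lower (24.1% of all genes were), and the other 5 did not pass the test. Each PSC library had more Mcam than any S100β-GFP+ library, as were 5.24% of all genes, and its difference was 3.55 ± 0.35 on the log2 scale (adjusted p = 1.0e-09). Each PSC library had less Abcc9 than any S100β-GFP+ library, as were 10.3% of all genes, at a log2 fold change of -3.29 ± 0.37 (adjusted p = 1.7e-08). For Acta2, Myh11, Tagln and Cnn1 the log2 fold changes were -0.14, -0.01, 0.04 and 0.14, with 95% intervals of -0.80 to 0.51, -0.78 to 0.76, -0.72 to 0.80 and -0.84 to 1.12, and for Higd1b it was -0.52 (-1.31 to 0.27).

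The lower Rgs5 of PSCs did not pass without 3 S100β-GFP+ libraries, and the lower Mylk was close to the threshold. Rgs5 had a log2 fold change of -1.59 ± 0.37 (adjusted p = 0.00078). It passed in all 27 fits that left out 1 library (-1.74 to -1.21, adjusted p of 0.00014 to 0.0044). Leaving out the S100β-GFP+ libraries highest for Rgs5 lowers this difference by itself, and these were libraries 14, 17 and 22. Without those 3 it was -0.46 (adjusted p = 0.22). In those libraries Rgs5 was at 258, 659 and 497 CPM, above the 54.1 to 179 CPM of the other 5, and Pecam1, an endothelial marker, was at 119, 466 and 280 CPM against 8.88 to 24.2 CPM. Pdgfrb, the receptor of mural cells and fibroblasts for platelet-derived growth factor, was also higher there, at 134 to 136 CPM against 31.5 to 63.6 CPM. Mylk had a log2 fold change of -0.71 ± 0.28 (adjusted p = 0.039). It passed in 4 of 8 other settings (log2 fold changes of -0.78 to -0.35, adjusted p of 0.027 to 1.0). It did not when the fit left out NG2-dsRed+ libraries, when the part of the counts on Lars2, Gm23935 and Gm15564 was a covariate, in the test against a 2-fold change, or without those 3 S100β-GFP+ libraries (-0.35, adjusted p = 0.38). Nor did it pass when any of 14 libraries was left out alone, these being NG2-dsRed+ libraries 2, 28 and 35, those of S100β-GFP+ cells numbered 11, 14, 17, 22 and 33, and those of PSCs numbered 4, 6, 20, 23, 34 and 36 (log2 fold changes of -0.72 to -0.54, adjusted p of 0.0503 to 0.12). Abcc9 kept its call without the 3 libraries, at -2.86 (adjusted p = 7.2e-07). Mcam was then at 4.30 (adjusted p = 7.5e-11). Libraries 17 and 22 were the highest S100β-GFP+ libraries for Mcam, so leaving them out raises its difference by itself and does not test its call.

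**Figure D3:**
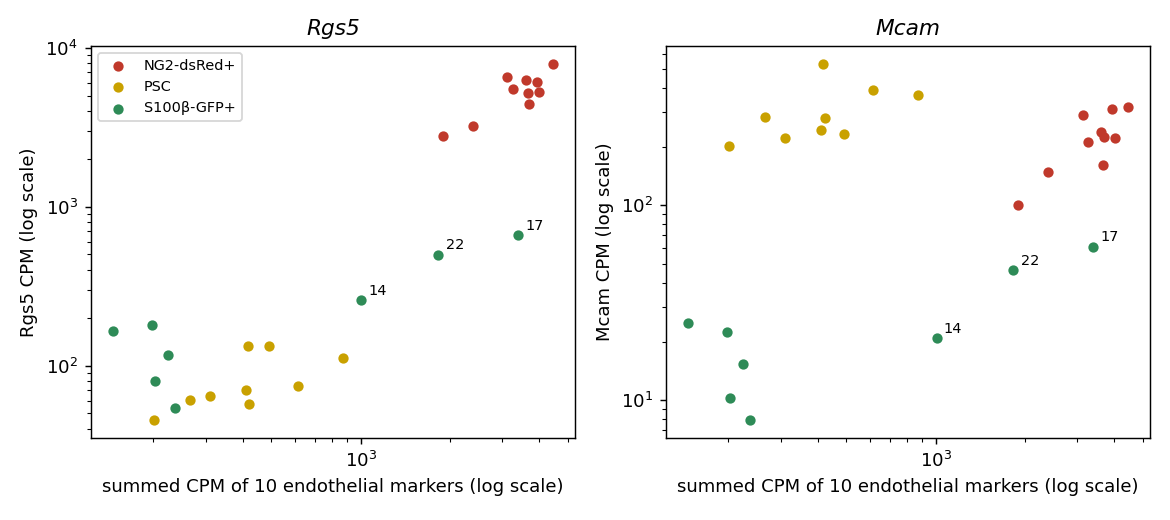
Rgs5 (left) and Mcam (right) in every library in CPM, against the summed CPM of 10 endothelial markers, both on log axes, with S100β-GFP+ libraries 14, 17 and 22 numbered. These 3 libraries have endothelial sums of 1007 to 3404 CPM, and in libraries 17 and 22 Rgs5 is at 659 and 497 CPM; PSCs hold Mcam at 203 to 532 CPM at endothelial sums of 200 to 874 CPM.

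Levels of different genes were compared per length, as CPM per kilobase of exon. In NG2-dsRed+ cells Rgs5 (1171 ± 340 CPM per kilobase) and Acta2 (1017 ± 323) stood above the rest and differed from each other by less than the SD of either. Myh11 (128 ± 42), Higd1b (114 ± 23) and Tagln (97.1 ± 40.2) followed with overlapping spreads, then Mcam (66.3 ± 21.4) and Abcc9 (66.1 ± 22.4), which were at the same level, Mylk (46.6 ± 10.2) and Cnn1 (13.9 ± 6.7). In PSCs Mcam (91.2 ± 31.7) and Acta2 (87.5 ± 51.9) were highest and differed by less than their SDs, and Rgs5 was at 18.3 ± 7.4, Tagln at 11.3 ± 9.4, Myh11 at 11.1 ± 6.3, Cnn1 at 3.07 ± 2.61, Mylk at 2.84 ± 1.23, Higd1b at 2.46 ± 2.50 and Abcc9 at 0.827 ± 0.597. In S100β-GFP+ cells Acta2 was at 96.7 ± 44.0 and Rgs5 at 55.3 ± 47.5, which overlapped, and the other 7 were between 2.78 and 11.2. Abcc9 was thus the lowest of the 9 per length in PSCs, where the mean level of the contractile genes Acta2, Myh11, Tagln and Mylk was 6.09% to 11.6% of that in NG2-dsRed+ cells, Cnn1 was at 22.1%, and Rgs5, Abcc9 and Higd1b were at 1.57%, 1.25% and 2.16%.

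Whether the genes fell together or unequally was tested within libraries, by setting the counts of each gene against those of Acta2 in the same library, so that library size and scaling cancel. This test was chosen after the levels were seen, and 24 differences were tested with an exact permutation test, two-sided, and Benjamini-Hochberg adjustment. Myh11 was at 35.9% to 52.4% of the Acta2 counts in NG2-dsRed+ libraries (median 45.1%), and at a median of 39.5% in PSCs and 36.9% in S100β-GFP+ cells. Tagln was at medians of 9.10%, 10.1% and 10.3%. None of the 6 differences for these genes passed the test (adjusted p of 0.16 to 0.90), with sizes of 1.02-fold to 1.24-fold.

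Cnn1 and Mylk did differ relative to Acta2. Cnn1 was at a median of 1.60% of Acta2 in NG2-dsRed+ libraries and 3.74% in PSCs, which were 2.35-fold higher on the mean of log2 ratios (exact permutation test, adjusted p = 0.00055). Mylk was at a median of 18.9% in PSCs, 1.39-fold below NG2-dsRed+ libraries (adjusted p = 0.00055) and 1.47-fold below S100β-GFP+ libraries (adjusted p = 0.00055), by exact permutation tests. Its share did not pass the test between NG2-dsRed+ and S100β-GFP+ libraries (23.2% and 22.4%, exact permutation test, adjusted p = 0.63), and neither did that of Cnn1 (1.61-fold, exact permutation test, adjusted p = 0.085).

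Between NG2-dsRed+ cells and PSCs the 4 pericyte genes differed relative to Acta2 by 5.02-fold to 18.0-fold. In NG2-dsRed+ libraries Rgs5 was at 143% to 375% of Acta2 and in PSCs at a median of 50.4%, a difference of 5.02-fold (exact permutation test, adjusted p = 0.00042), and it was 2.40-fold higher in NG2-dsRed+ than in S100β-GFP+ libraries (exact permutation test, adjusted p = 0.0036). Abcc9 fell from a median of 23.7% in NG2-dsRed+ libraries to 3.37% in PSCs, 7.35-fold (exact permutation test, adjusted p = 0.00042), and was at 30.6% in S100β-GFP+ libraries, which did not differ from NG2-dsRed+ libraries by the test (1.38-fold, exact permutation test, adjusted p = 0.19) and were 10.2-fold above PSCs (exact permutation test, adjusted p = 0.00055). Higd1b was 5.24-fold lower relative to Acta2 in PSCs and 2.97-fold lower in S100β-GFP+ cells than in NG2-dsRed+ cells (exact permutation tests, adjusted p = 0.00042 and 0.00071). Mcam was at a median of 10.6% of Acta2 in NG2-dsRed+ libraries, 13.0% in S100β-GFP+ libraries and 174% in PSCs, which were 18.0-fold above NG2-dsRed+ and 15.4-fold above S100β-GFP+ libraries (exact permutation tests, adjusted p = 0.00026 and 0.00042), while NG2-dsRed+ and S100β-GFP+ libraries did not differ by the test (1.17-fold, adjusted p = 0.54).

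**Figure D4:**
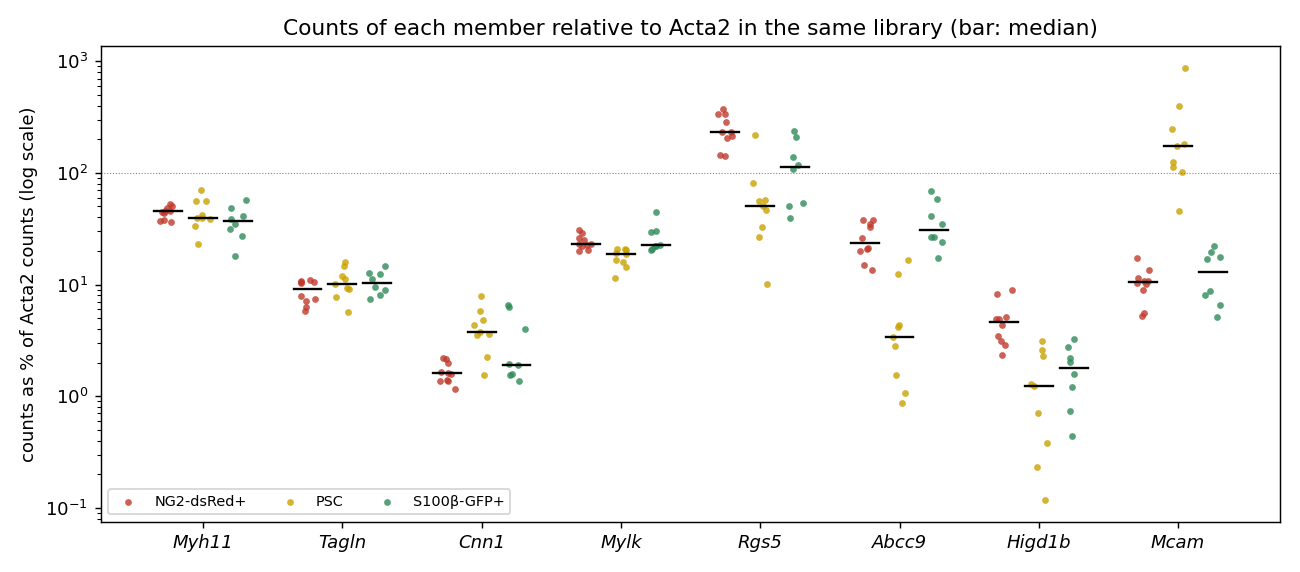
Counts of 8 genes as a percent of the Acta2 counts of the same library, on a log axis, with a point for each library and a bar at the median of each sorted cell type. Myh11 and Tagln have medians of 36.9% to 45.1% and 9.10% to 10.3% over the 3 cell types, while Mcam stands at a median of 174% in PSCs and at 10.6% and 13.0% in the others.

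Among libraries of 1 cell type, the contractile genes rose and fell together. Over the 108 pairs of genes and cell types, 35 Pearson correlations of log2 CPM passed an adjusted p of 0.05 by permutation (exact where there were 8 or 9 libraries), as did 24 Spearman correlations. Of the 10 contractile pairs, 10 passed in PSCs (median r = 0.94, lowest 0.85), 9 in NG2-dsRed+ cells (median 0.86, lowest 0.71) and 8 in S100β-GFP+ cells (median 0.84, lowest 0.69), and by rank 10, 6 and 4 passed. The 2 libraries farthest from the median of the gene of a pair listed first were then left out. The medians were then 0.89, 0.67 and 0.59 in the same order. Leaving out extreme libraries narrows the range and can lower r by itself, so this does not show where the relation lay. In PSCs, Acta2 and Mylk had r = 0.95 and rho = 0.98 (exact permutation tests, adjusted p = 0.0013 and 0.0032; r = 0.88 without those 2 libraries).

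Particular libraries marked the ends of this range. NG2-dsRed+ library 13 was highest for all 5 contractile genes, and library 35 was lowest for Acta2, Myh11, Cnn1 and Mylk. PSC library 18 was highest for Acta2, Tagln, Cnn1 and Mylk and lowest for Rgs5 and Mcam, and its markers of skeletal muscle fibres (1800 CPM) and of macrophages and leukocytes (578 CPM) were also the highest among PSC libraries. PSC library 23 was lowest for all 5 contractile genes and highest for Rgs5 and Mcam.

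Among the pericyte genes of NG2-dsRed+ cells Rgs5, Abcc9 and Mcam moved together: Rgs5 and Abcc9 had r = 0.98 and rho = 0.95 (adjusted p = 0.0013 and 0.0032, permutation test; r = 0.96 without the 2 farthest libraries), Rgs5 and Mcam r = 0.90 and rho = 0.88 (adjusted p = 0.0039 and 0.011; r = 0.69) and Abcc9 and Mcam r = 0.88 and rho = 0.85 (adjusted p = 0.0052 and 0.017; r = 0.72). Higd1b went with none of them (r of -0.38 to -0.25). No pair of a contractile and a pericyte gene passed the test in NG2-dsRed+ cells, with r of -0.45 to 0.52 over the 20 pairs. Over the same 20 pairs in S100β-GFP+ cells r was -0.15 to 0.84 (median 0.49). There 1 pair passed, Myh11 with Abcc9 (r = 0.84, exact permutation test, adjusted p = 0.032). By rank that pair did not pass (exact permutation test, adjusted p = 0.24), and r was 0.335 without the 2 farthest libraries. In S100β-GFP+ cells r was 0.56 to 0.98 over the 6 pericyte pairs, of which 1 passed the exact permutation test, and in PSCs it was -0.25 to 0.63 and no pair passed it.

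The part of the counts that fell on Lars2, Gm23935 and Gm15564, which ran from 12.5% to 40.0% over NG2-dsRed+ libraries, moved with the same 3 genes. Over the 10 libraries its correlation was r = 0.93 and rho = 0.90 with Rgs5 (adjusted p = 0.0031 and 0.010, permutation test; r = 0.79 without the 2 farthest libraries), r = 0.93 and rho = 0.93 with Abcc9 (adjusted p = 0.0031 and 0.010; r = 0.83) and r = 0.84 and rho = 0.85 with Mcam (adjusted p = 0.028 and 0.028; r = 0.52). No other of the 27 relations of a member with this share within a cell type passed the test. After both genes were regressed on the share, r was 0.86 for Rgs5 with Abcc9, 0.60 for Rgs5 with Mcam and 0.50 for Abcc9 with Mcam. The same regression moved the r of Rgs5 with the contractile genes the other way, from 0.44 to 0.73 with Acta2, 0.24 to 0.72 with Myh11, -0.08 to 0.68 with Tagln, 0.31 to 0.64 with Cnn1 and 0.52 to 0.83 with Mylk, and the median r over the 20 pairs of a contractile and a pericyte gene from 0.21 to 0.46. The values after regression are a description with no p. NG2-dsRed+ library 28, which had the lowest share, was the lowest for Rgs5 (2775 CPM), Abcc9 (288 CPM), Mcam (100 CPM), Pdgfrb (335 CPM) and the endothelial sum (1893 CPM). The summed fibroblast markers were highest in libraries 28 and 35 (19820 and 15700 CPM), the 2 lowest for Rgs5, against 3873 CPM in library 15, the highest for Rgs5 (7921 CPM), and their part in these relations was not tested.

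In PSCs Mcam ran against the contractile genes. Its r was -0.87 with Cnn1, -0.80 with Tagln and -0.79 with Myh11 (exact permutation tests, adjusted p = 0.0059, 0.031 and 0.038), and -0.68 with Mylk and -0.65 with Acta2, which did not pass. By rank none passed (rho of -0.80 to -0.57, exact permutation tests, adjusted p of 0.057 to 0.27), and without the 2 farthest libraries r was -0.63 for Cnn1, -0.41 for Tagln and -0.46 for Myh11. The libraries left out were 18 and 23 for Cnn1 and Tagln and 12 and 23 for Myh11. After regression on the share of Lars2, Gm23935 and Gm15564, r was -0.95 for Cnn1, -0.93 for Tagln, -0.82 for Myh11, -0.77 for Mylk and -0.88 for Acta2. In S100β-GFP+ cells Rgs5 and Mcam had r = 0.98 and rho = 0.90 (exact permutation tests, adjusted p = 0.0027 and 0.024; r = 0.94 without the 2 farthest libraries). Libraries 17 and 22, with raised endothelial markers, were highest for both, and the 5 libraries other than 14, 17 and 22 are too few for a correlation of their own.

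**Figure D5:**
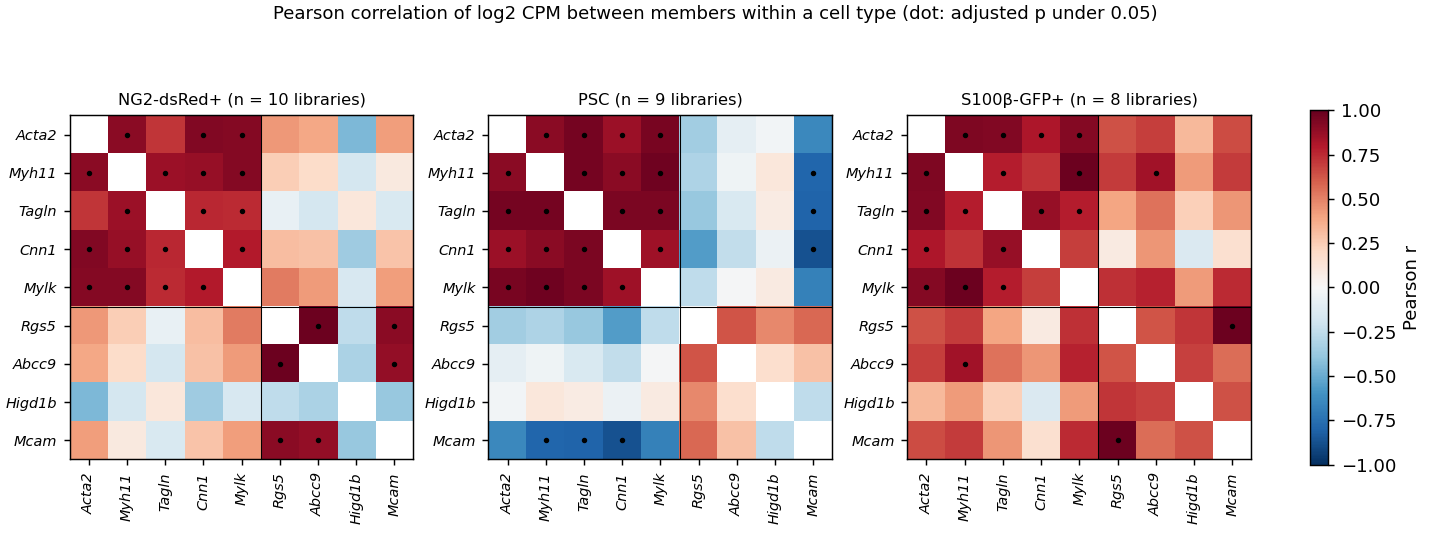
Pearson correlation of log2 CPM for every pair of the 9 genes over the libraries of 1 cell type (colour scale from -1 to 1), with a dot where the adjusted p is under 0.05; lines part the contractile from the pericyte genes. The contractile block is red in all 3 panels (lowest r 0.69), and Mcam is blue against it in PSCs (-0.87 to -0.65).

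Other genes of the same pathways were counted from lists. Of 30 other contractile genes, 25 were higher and 2 lower in NG2-dsRed+ cells than in PSCs, and 25 were higher and 1 lower than in S100β-GFP+ cells, with median log2 fold changes of 2.00 and 2.33. Over all genes tested, 23.1% were higher in NG2-dsRed+ cells than in PSCs and 15.2% than in S100β-GFP+ cells. Between PSCs and S100β-GFP+ cells 9 of the 30 were higher in PSCs, 9 were lower and 12 did not pass (median 0.03). Of all genes tested, 22.9% were higher in PSCs and 24.1% lower. Of the 30, those with the highest mean CPM in NG2-dsRed+ cells were Myl9, Cald1 and Tpm1. Myl9, a regulatory light chain of myosin, was at 1365 ± 274 CPM, and at 164 ± 115 CPM in PSCs. Cald1, the gene of caldesmon, was at 816 ± 130 and 372 ± 74 CPM, and Tpm1, a tropomyosin, at 802 ± 193 and 290 ± 135 CPM. Those that went the other way were Csrp1 and Cnn3, at log2 fold changes of -1.38 ± 0.33 (adjusted p = 0.0011) and -1.01 ± 0.15 (adjusted p = 2.5e-06) against PSCs, and Tagln2, at -0.46 ± 0.17 (adjusted p = 0.033) against S100β-GFP+ cells. Cnn3 and Tagln2 are paralogs of Cnn1 and Tagln.

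Of 28 other mural genes, 27 were tested. Of these, 24 were higher in NG2-dsRed+ cells than in PSCs and 3 did not pass the test, where 23.1% of all genes were higher. Against S100β-GFP+ cells 23 were higher and 1 lower, where 15.2% of all genes were higher. The median log2 fold changes were 4.49 and 2.97. Pdgfrb was at 671 ± 210 CPM in NG2-dsRed+ cells, 16.3 ± 10.3 CPM in PSCs and 82.4 ± 45.3 CPM in S100β-GFP+ cells, and Notch3, the Notch receptor of mural cells, at 571 ± 186, 18.3 ± 9.1 and 52.3 ± 33.6 CPM. Anpep, which encodes the aminopeptidase CD13, was lower in NG2-dsRed+ than in S100β-GFP+ cells (log2 fold change -1.54, adjusted p = 0.00065). Between PSCs and S100β-GFP+ cells 3 were higher in PSCs and 16 lower (22.9% and 24.1% of all genes were), with a median of -1.51. The 3 were Cspg4 (3.28, adjusted p = 2.3e-11), Art3 (3.40, adjusted p = 3.5e-10) and the transcription factor Tbx2 (1.24, adjusted p = 0.0016). The promoter of Cspg4 drives the dsRed used in the sort. Its higher level than in S100β-GFP+ cells, counted here for PSCs and above for NG2-dsRed+ cells, thus comes with the sorting.

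Of the 5 paralogs of Acta2, 2 were higher in NG2-dsRed+ cells than in PSCs and 3 did not pass, where 23.1% of all genes were higher. Against S100β-GFP+ cells 1 was lower and 4 did not pass, where 5099 of 15330 genes passed in either direction. Actb, the cytoplasmic beta-actin, was at 2532 ± 344 CPM in NG2-dsRed+ cells, 1698 ± 485 CPM in PSCs and 3577 ± 1692 CPM in S100β-GFP+ cells, and Actg1 at 503 ± 129, 323 ± 88 and 804 ± 237 CPM. Acta1, the skeletal muscle actin, was at 171 ± 62, 203 ± 130 and 151 ± 62 CPM. Of the 50-base stretches of Acta2 transcripts 7 of 2146 also occurred in transcripts of another gene, and the highest share over the 9 genes was 0.614%, in Abcc9.

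Markers of other cell types also differed between the groups, and their part in the members' differences was not tested. Over all genes tested, 23.1% were higher in NG2-dsRed+ cells than in PSCs and 15.2% than in S100β-GFP+ cells. Of the 15330 genes, 6743 and 5099 passed in either direction. Of 10 endothelial markers 10 were higher in NG2-dsRed+ cells than in PSCs and 8 than in S100β-GFP+ cells, among them Cdh5 (log2 fold changes 2.83 and 2.24), Flt1 (3.02 and 2.28) and Pecam1 (3.15 and 1.92). Of 8 fibroblast markers 8 were higher in NG2-dsRed+ cells than in PSCs and 6 were lower than in S100β-GFP+ cells, with Col3a1 at 3670 ± 2004, 614 ± 280 and 14880 ± 4140 CPM in NG2-dsRed+ cells, PSCs and S100β-GFP+ cells. Of 9 Schwann cell markers tested, 8 were lower in NG2-dsRed+ cells than in PSCs and 7 than in S100β-GFP+ cells. S100b, whose promoter drives the GFP used in the sort, was counted in both. Of 8 macrophage and leukocyte markers 3 were higher and 1, Lyz2, was lower in NG2-dsRed+ cells than in PSCs (log2 fold change of Lyz2 -2.65, adjusted p = 5.3e-05), and 8 were lower than in S100β-GFP+ cells.

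The genes most like the set were found by the Pearson correlation of log2 CPM, over all 27 libraries, with the mean of the members' standardized values. They were Myl9 (r = 0.98), Gucy1a1, a subunit of the nitric oxide receptor guanylate cyclase (0.98), Gjc1, the gene of connexin 45 (0.97), Lmod1, a leiomodin of smooth muscle (0.96), Gm13889 (0.96), Vtn, the gene of vitronectin (0.96), Akap6 (0.96) and Inpp4b (0.96). Gucy1a1 was at 465 ± 90 CPM in NG2-dsRed+ cells, 19.5 ± 7.6 CPM in PSCs and 29.6 ± 19.8 CPM in S100β-GFP+ cells. Gjc1 was at 136 ± 20, 22.5 ± 5.7 and 21.1 ± 7.0 CPM. The members' own r with the mean, of which each is a part, was 0.83 to 0.99 for 8 genes and 0.38 for Mcam. The points share the cell type differences described above, so these values are a description and have no p.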

How the data were processed

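RNA of cells sorted by FACS from muscle of single mice was amplified with the SMART-Seq v4 kit and sequenced. The authors used ea-utils and Btrim to trim, HISAT2 to align and HTSeq to count, and deposited raw counts of reads per gene, which are whole numbers and not normalized. The submitters' processing notes name GRCm38. Neither versions nor strand settings are stated in those notes or in the methods, so reads of a gene and a partner on the opposite strand cannot be told apart. Of 36 samples in the labels, 27 had a column and 9 were not analysed here. The study kept fewer S100β-GFP+ replicates than the table has columns and does not say which. No 2 columns were identical, and all 109 replicate pairs differed by more than sampling noise (lowest chi-square per degree of freedom 8.10).

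Symbols and positions came from GENCODE M21 (99.72% of 52636 identifiers matched). edgeR 4.0.16 in R 4.3.3 was used with TMM, filterByExpr (minimum count 10), 1 quasi-likelihood fit of all 27 libraries and Benjamini-Hochberg adjustment over 15330 genes at 0.05. All adjusted p-values of fold changes are from this test unless another is named. The SE is the log2 fold change divided by the root of its F statistic, and intervals use 1.96 SE. CPM used TMM-scaled library sizes, log2 CPM a prior count of 2, and levels per length the exonic length. PCR copies cannot be told from molecules. Libraries called farthest lay farthest from the median of the gene of a pair listed first, or of the share in relations with the share. Permutation tests were two-sided. Those of ratios to Acta2 enumerated every arrangement of the libraries and are exact, and those of correlations are exact for 8 or 9 libraries and used 100000 permutations for 10. Alternatives were DESeq2 1.42.0 (Wald test), its size factors, limma-voom (limma 3.58.1) with quality weights, no filter, only the compared types, a test against a 2-fold change, the part of a library's counts on Lars2, Gm23935 and Gm15564 as covariate, fits without S100β-GFP+ libraries 14, 17 and 22, and leaving out each library.

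The fit and the permutation tests were tested on simulated data. The members and lists were chosen with earlier results of these data known. Named were the members, Cspg4 and S100b, of each list the 3 genes highest in NG2-dsRed+ cells and those called against its direction, the 8 most similar genes, and genes overlapping a member. For the lists of other cell types, sums, counts and some markers are given, chosen after their values were seen, and satellite cell markers summed to at most 72.4 CPM in any library. Mkl1 and Mkl2 were read as Mrtfa and Mrtfb. Promoters were RefSeq windows of 250 bases before the start, and the CArG box (2 C, 6 A or T, 2 G) is a palindrome, so both strands were covered.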

Additional observations from a re-analysis of the deposited data

Results flagged for a closer look

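In 5 of the 27 combinations of gene and cell type, the highest library stood off from the others by more than Dixon's limit for a group of its size. Chance gives about 1 in 20 such groups where values are normally distributed and groups independent. The contractile genes moved together within a cell type, so the 5 are not independent, and an excess over that rate was not tested. All 5 concerned contractile genes in 2 libraries. NG2-dsRed+ library 13 had Myh11 at 1733 CPM (next highest 1131 CPM), Tagln at 396 CPM (next 254 CPM) and Cnn1 at 82.4 CPM (next 46.8 CPM). PSC library 18 had Acta2 at 448 CPM (next 231 CPM) and Cnn1 at 26.1 CPM (next 9.91 CPM). Leaving out either library changed no call of NG2-dsRed+ cells against PSCs or against S100β-GFP+ cells.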

How the results depend on the processing

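No paired analysis was possible because the libraries of different cell types share no replicate numbers in the labels. The counts of genes that passed, 8 of 9 for NG2-dsRed+ cells against PSCs, 9 of 9 against S100β-GFP+ cells and 4 of 9 for PSCs against S100β-GFP+ cells, changed by over 1.5 times only in the last, to 2 in a test against a 2-fold change and to 2 without S100β-GFP+ libraries 14, 17 and 22. Between PSCs and S100β-GFP+ cells, 4 log2 fold changes near 0 turned sign and none of them passed under any setting: Acta2 to 0.09, Myh11 to 0.50 and Cnn1 to -0.14 without those 3 libraries, Myh11 to 0.12 and Tagln to -0.47 with limma-voom, Myh11 to 0.03 without a filter, and Tagln to -0.08 with Lars2, Gm23935 and Gm15564 counts as covariate. Leaving out 1 library in turn gave -0.34 to 0.00 for Acta2, -0.17 to 0.17 for Myh11, -0.28 to 0.23 for Tagln and -0.21 to 0.54 for Cnn1. Of 216 log2 fold changes over 8 other settings 202 kept direction and call, and of 729 with 1 library left out 690 did. Over all genes, 6743, 5099 and 7198 passed in the order given; a test against a 2-fold change left 2802, 1802 and 2817. Without a filter 10586 and 16556 of 44705 passed in the comparisons with S100β-GFP+ cells, where the median log2 fold change moved to -0.78 and -0.97. Cnn1 and Higd1b held fewer than 10 counts in some PSC and S100β-GFP+ libraries, so their low values are the least precise. The cause of these changes was not tested.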
